A study of Mus musculus with 2 samples.

Results

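The teneurins (Tenm1, Tenm2, Tenm3 and Tenm4) and their latrophilin receptors (Adgrl1, Adgrl2 and Adgrl3) were followed across the cell classes of gastrulating mouse embryos at embryonic day 7.0. They were taken by gene symbol, giving 7 of the 32285 measured genes. With them were taken the 128 of 229480 accessibility peaks within 50 kb of the first or last transcription start listed for one of them. Pooled E7.0 embryos had been turned into nuclei, and each nucleus gave RNA, counted as unique molecular identifiers (UMIs, 1 per captured RNA molecule), and accessible chromatin, counted per peak of transposase cuts. There was 1 library for each assay, and all 15341 barcodes were shared by both libraries, so the values have no replicates behind them and were not tested. Bounds in parentheses are 95% intervals for counting error alone. The labels disagree on the material: title, age and protocol give E7.0 embryos, whereas the tissue, cell type and strain entries name small intestine or distal colon, goblet cells and the strain RedMUC298trTg. No genotype beyond that strain entry, treatment or number of embryos was given. The groups follow the title and age. Over all kept nuclei the epiblast marker list stood at 1627 CPM (counts per 1000000 UMIs) and the goblet and intestinal list at 29.0 CPM, of which 27.4 CPM came from Vil1, a microvillus protein. The goblet mucin Muc2 stood at 0.117 CPM and the goblet peptide Tff3 at 0.0412 CPM, and none of the 8 genes was at 0.

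Teneurins are very large transmembrane proteins that pair with each other and bind latrophilins on neighbouring cells. Latrophilins are adhesion G protein-coupled receptors that also bind FLRT proteins and neurexins. Both families are best known for guiding axons and matching synapses, and in the mouse Tenm4 has also been linked to gastrulation through mutations that block mesoderm formation.

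In total 182201512 UMIs and 273131304 peak counts were deposited. After limits on depth and removal of 1100 doublet calls, 12796 nuclei remained, with medians of 10471 UMIs and 17350 peak counts. Each assay was clustered alone, and clusters were named from marker RNA, so RNA is described in classes drawn from accessibility and accessibility in classes drawn from RNA. A name such as epiblast-like means that the markers of that tissue led the cluster. The accessibility-drawn classes were epiblast-like (3819 nuclei), embryonic mesoderm-like (1292), extraembryonic ectoderm-like (1244), anterior streak-like (1014, also holding node and definitive endoderm markers), primitive streak-like (841), visceral endoderm-like (638), haemato-endothelial-like (566, with extraembryonic mesoderm markers also raised) and ectoplacental-like (359, with giant cell markers, and with 7 extraembryonic ectoderm markers also raised). Their median depths ran from 9860 UMIs in the anterior streak-like to 14206 in the visceral endoderm-like nuclei. A further 3023 nuclei stayed outside these classes. All 8 embryonic mesoderm markers and 10 of 11 visceral endoderm markers were over 2-fold higher in their class, against 5 of 8 in both the primitive streak-like and the ectoplacental-like class. In the ectoplacental-like class the placental hormone gene Prl3b1 was at 0. No RNA-drawn class took the primitive streak name. The names also drew on RNA, and 4 members (Tenm2, Tenm3, Tenm4 and Adgrl2) were among the variable genes of the RNA clustering.

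The start sites listed for the family differ in CpG content. A pair of CpG-rich ones and 1 CpG-poor one are shown, because the peak at the CpG-rich Adgrl1 start held 11997 counts and that at the CpG-poor first Tenm4 start 489. RefSeq (GRCm38.p6) gives 10 start sites for the 7 genes in the table used, and the 250 bases before each start held from 0 to 36 CpG sites, against a median of 6 over 32851 promoters. The sites listed for Tenm1, Tenm2, Tenm3 and Adgrl2 lie inside the gene and away from its RefSeq 5' end, so their CpG counts are not those of the promoter at that end. The Adgrl3 stretch printed below also lies inside its gene, past the RefSeq 5' end at position 81019085. Below, CpG sites are in capitals. Adgrl1 at chr8:83899848-83900097 (plus strand, 21 CpG sites) and the Adgrl3 start at chr5:81020502-81020751 (plus strand, 18) are CpG-rich. The Tenm4 start at chr7:96170994-96171243 (plus strand, 4) is CpG-poor and lies at the RefSeq 5' end of the gene.
Adgrl1: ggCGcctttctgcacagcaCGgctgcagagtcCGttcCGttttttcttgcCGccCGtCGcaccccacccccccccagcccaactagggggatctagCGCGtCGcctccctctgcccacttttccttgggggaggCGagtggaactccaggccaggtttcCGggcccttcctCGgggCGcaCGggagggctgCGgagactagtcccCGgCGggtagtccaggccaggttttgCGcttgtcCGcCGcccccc
Adgrl3: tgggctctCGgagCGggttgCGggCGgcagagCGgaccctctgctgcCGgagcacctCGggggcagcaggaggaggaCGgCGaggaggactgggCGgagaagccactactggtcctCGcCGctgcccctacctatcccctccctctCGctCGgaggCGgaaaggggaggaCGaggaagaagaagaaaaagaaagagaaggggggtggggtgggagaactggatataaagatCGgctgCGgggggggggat
Tenm4: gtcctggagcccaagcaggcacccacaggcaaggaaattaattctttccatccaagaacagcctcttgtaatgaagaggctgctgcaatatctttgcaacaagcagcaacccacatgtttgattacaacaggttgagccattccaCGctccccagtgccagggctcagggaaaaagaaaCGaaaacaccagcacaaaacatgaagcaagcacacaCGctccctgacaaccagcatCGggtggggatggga
A peak overlapped the Adgrl1 and Tenm4 stretches, and none overlapped the Adgrl3 stretch. Over the 10 sites, a peak overlapped those with 2 (Tenm2), 4 (first Tenm4), 8 (Tenm3) and 21 (Adgrl1) CpG sites. None overlapped those with 0 (Tenm1), 3 (Adgrl2), 8 (last Tenm4) and 36, 18 and 18 (Adgrl3). The Adgrl1 and Adgrl3 stretches each held 2 matches to the GC box GGGCGG, searched on both strands, a motif present in 32.7% of all promoters. The Adgrl3 stretch also held 1 match to TATAAA. The stretch before the Tenm1 site of the table (chromosome X, 43274785 to 43275034, minus strand) held no CpG, 4 matches to TATAAA, found in 12.4% of promoters, and no overlapping peak. Matches are descriptions of these letters and not of binding.

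Per unit of gene length the latrophilins Adgrl1 and Adgrl2 were the most abundant members. Divided by the RefSeq span of the gene, levels over all kept nuclei were 255 CPM per 100 kb for Adgrl2, 249 for Adgrl1, 42.1 for Tenm4, 24.4 for Tenm3, 2.80 for Tenm2, 2.72 for Adgrl3 and 2.15 for Tenm1. These spans run from 41.9 kb (Adgrl1) to 1297 kb (Tenm3), and nuclear RNA includes intronic molecules, so the division is a scale and not a molecule count. In UMIs of all deposited barcodes the members ranged from 3521 (Tenm1) to 80364 (Adgrl2).

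The embryonic mesoderm-like class stood out for the teneurins. There 5 of 7 members were over 2-fold higher than in all other nuclei, against 5.36% of all 16055 genes tested in that class, and none was lower (14.8% of genes). The median log2 ratio of the 7 members was 1.16, against -0.06 over all those genes. In the visceral endoderm-like class all 7 members were over 2-fold lower, against 23.7% of genes, and none higher (9.31%), with a median log2 ratio of -3.74 against -0.21. The other nuclei here include an unnamed cluster of 926 nuclei whose leading list was visceral endoderm. In the larger RNA-drawn class of that name (1751 nuclei) the falls were deeper for the 4 teneurins and Adgrl2, as for Tenm4 (39.0-fold). They were not deeper for Adgrl1 (7.30-fold) or Adgrl3 (28.3-fold). In the extraembryonic ectoderm-like class 5 of 7 were lower (23.9% of genes) and in the ectoplacental-like class 5 of 7 (20.9%): all 4 teneurins and Adgrl3 in both, with Adgrl1 and Adgrl2 as the exceptions. None was higher in either class (6.67% and 4.75% of genes). The epiblast-like class had 1 member lower (13.5%) and none higher (9.17%), the anterior streak-like class 1 lower (8.88%) and none higher (4.26%), and the primitive streak-like class 1 higher (2.19%) and 1 lower (10.1%), which with so few members lie near the background. The lower member was Tenm2 each time. All other nuclei there include the mesoderm-like class, which held 3590 of the 5026 Tenm2 UMIs, so these ratios depend largely on that class. The haemato-endothelial-like class had none higher (4.88%) or lower (12.2%). In the RNA-drawn class of that name, however, Tenm2 was 14.6-fold lower (6.69 to 39.7) and Tenm4 4.58-fold lower (3.94 to 5.35). Over the 8 classes together, 6 of 56 member and class pairs were higher (5.94% of all pairs) and 20 lower (16.0%).

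**Figure D1:**
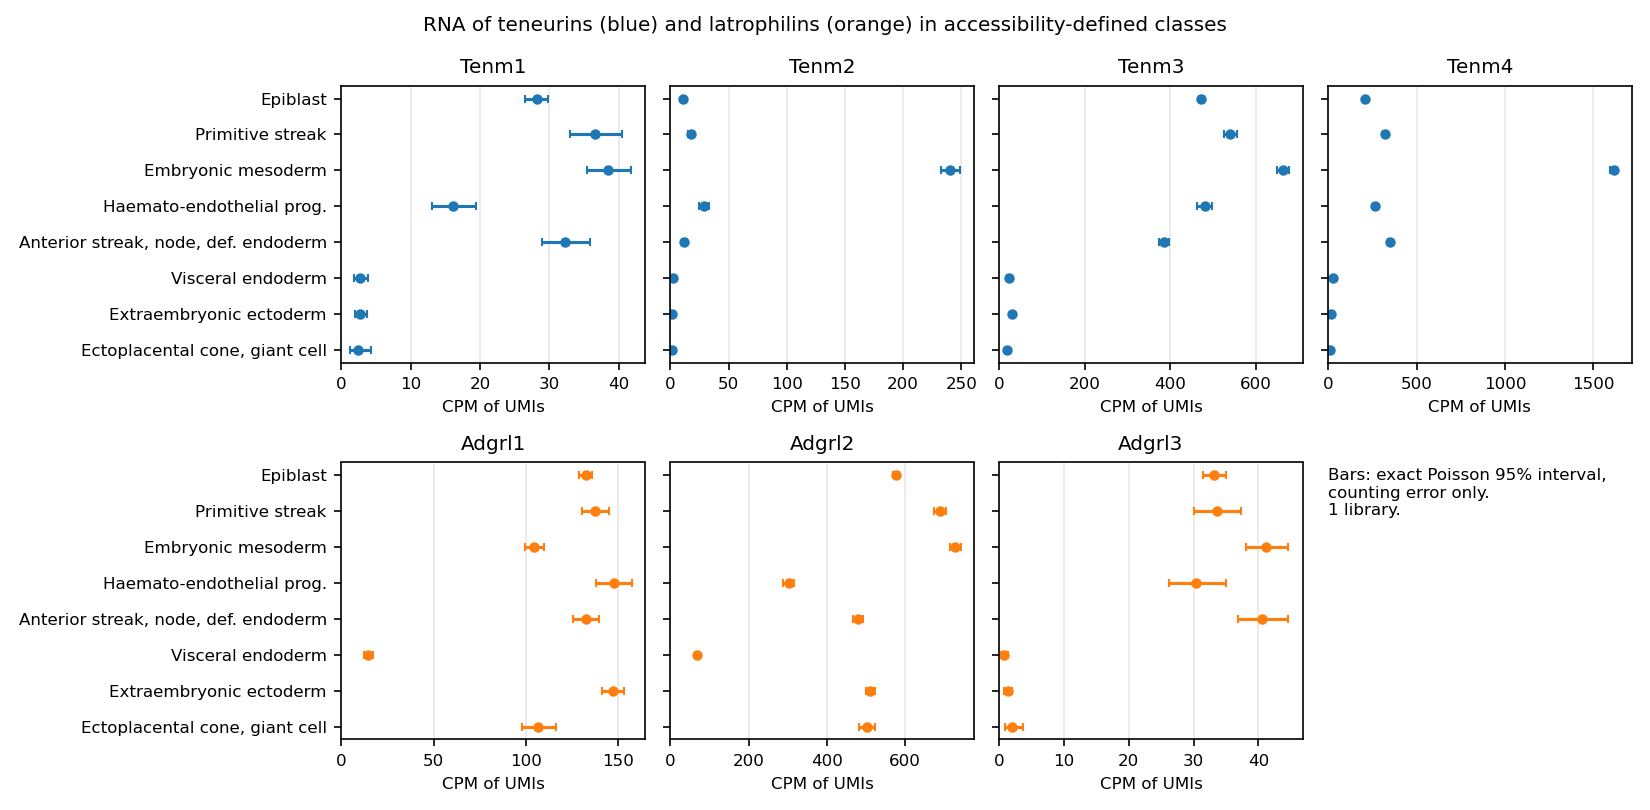
RNA level of each gene (horizontal axis, CPM of UMIs, a separate linear scale from 0 in each panel) in the 8 accessibility-drawn classes (rows). Points are pooled levels and bars 95% counting intervals. Tenm2 and Tenm4 peak in the embryonic mesoderm-like row, at 240 and 1615 CPM, and all 7 genes are over 2-fold lower in the visceral endoderm-like row than in all other nuclei.

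Tenm4 had the highest level of any teneurin in a class and a wide range. It stood at 1615 CPM in the embryonic mesoderm-like, 350 in the anterior streak-like, 319 in the primitive streak-like, 266 in the haemato-endothelial-like, 210 in the epiblast-like, 24.9 in the visceral endoderm-like, 15.9 in the extraembryonic ectoderm-like and 12.5 in the ectoplacental-like class. The mesoderm-like nuclei were thus far above every other class, the streak-like, haemato-endothelial-like and epiblast-like classes lay between 210 and 350 CPM, and the visceral endoderm-like and the 2 trophoblast classes (extraembryonic ectoderm-like and ectoplacental-like) were low. The mesoderm-like level was 9.92-fold that of all other nuclei (9.74 to 10.1) and 4.61-fold that of the next class (4.46 to 4.78). The counting interval of the ratio included 1 for a single pair of neighbours in the order, extraembryonic ectoderm-like and ectoplacental-like. After each nucleus was thinned to 5000 UMIs, 94.4% of mesoderm-like nuclei held at least 1 Tenm4 UMI, against 51.8% of epiblast-like and 3.81% of extraembryonic ectoderm-like nuclei. Without thinning the shares were 96.3%, 65.6% and 10.0%, at median depths of 10856, 9895 and 12588 UMIs.

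Tenm2 had the largest ratio above all other nuclei of the 7 genes. Its level was 240 CPM in the embryonic mesoderm-like, 28.6 in the haemato-endothelial-like, 17.6 in the primitive streak-like, 11.8 in the anterior streak-like, 11.1 in the epiblast-like, 2.46 in the visceral endoderm-like, 1.70 in the extraembryonic ectoderm-like and 1.61 in the ectoplacental-like class. The mesoderm-like class held 3590 of the 5026 Tenm2 UMIs of kept nuclei, and no other class came near its level. That was 21.9-fold the level of all other nuclei (20.6 to 23.3) and 8.41-fold that of the haemato-endothelial-like class (7.24 to 9.82). The epiblast-like level was 3.92-fold below all other nuclei (3.56 to 4.33), where the mesoderm-like class held 3590 of the 4582 Tenm2 UMIs. That ratio therefore depends largely on the mesoderm-like class. The epiblast-like level could not be told from the anterior streak-like one (ratio 1.07, 0.867 to 1.30). Thinned shares were 49.96% of mesoderm-like, 4.38% of epiblast-like and 0.580% of ectoplacental-like nuclei, the last taken as background (63.8%, 8.22% and 2.23% unthinned, at median depths of 10856, 9895 and 11567 UMIs).

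These mesoderm ratios moved with several settings, and furthest with the treatment of doublets. With doublet calls kept, Tenm2 was 8.44-fold, Tenm4 5.82-fold and Tenm1 1.59-fold higher in the mesoderm-like class, and Tenm1 no longer passed 2-fold. In that setting the named class was another cluster of 992 nuclei, and 2 further clusters led by the same markers (605 and 511 nuclei) stayed unnamed. With coarser clustering Tenm1 was 1.94-fold, Tenm2 19.6-fold and Tenm4 8.64-fold higher. Finer clustering gave 15.6-fold for Tenm2 and 8.84-fold for Tenm4. Limits of 2000 UMIs and 2000 peak counts gave 18.1-fold and 9.43-fold. With the members left out of the clustering the ratios were 21.5 for Tenm2 and 10.1 for Tenm4.

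Tenm3 was broad outside the visceral endoderm-like and trophoblast classes. It stood at 664 CPM in the embryonic mesoderm-like, 540 in the primitive streak-like, 480 in the haemato-endothelial-like, 473 in the epiblast-like, 384 in the anterior streak-like, 30.7 in the extraembryonic ectoderm-like, 21.9 in the visceral endoderm-like and 17.2 in the ectoplacental-like class. The first 5 of these classes all lay above the last 3, with a 12.5-fold step between them (11.4 to 13.8). The mesoderm-like level was 2.39-fold that of all other nuclei (2.34 to 2.45). The haemato-endothelial-like and epiblast-like levels could not be told apart (ratio 1.02, 0.977 to 1.06). In the RNA-drawn classes of those names they differed, at 244 CPM (225 to 264) and 470 CPM (464 to 477). In the RNA-drawn primordial germ cell-like class (142 nuclei), whose boundary Tenm3 itself helped to draw, its level was 827 CPM (785 to 871), the highest of any RNA cluster.

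Tenm1 was the scarcest member per length and followed the same division. Levels were 38.5 CPM in the embryonic mesoderm-like, 36.6 in the primitive streak-like, 32.3 in the anterior streak-like, 28.2 in the epiblast-like, 16.0 in the haemato-endothelial-like, 2.75 in the extraembryonic ectoderm-like, 2.66 in the visceral endoderm-like and 2.42 in the ectoplacental-like class. The first 2 neighbouring pairs could not be separated (mesoderm-like over primitive streak-like 1.05, 0.922 to 1.20, and primitive streak-like over anterior streak-like 1.13, 0.975 to 1.31), nor could the last 3 classes. Mesoderm-like nuclei were 2.24-fold (2.04 to 2.45) and primitive streak-like nuclei 2.02-fold (1.80 to 2.25) above all other nuclei.

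Adgrl2, the most abundant member, was low in the visceral endoderm-like class. It stood at 728 CPM in the embryonic mesoderm-like, 689 in the primitive streak-like, 576 in the epiblast-like, 511 in the extraembryonic ectoderm-like, 502 in the ectoplacental-like, 479 in the anterior streak-like, 302 in the haemato-endothelial-like and 67.4 in the visceral endoderm-like class. The 7 other classes lay between 302 and 728 CPM. The visceral endoderm-like level was 6.98-fold below all other nuclei (6.48 to 7.54) and 4.48-fold below the next class (4.11 to 4.90). A UMI was seen in 19.2% of thinned visceral endoderm-like and 91.5% of thinned mesoderm-like nuclei (42.5% and 96.9% unthinned). The mesoderm-like ratio of 1.77 (1.74 to 1.81) fell to 1.20 with doublet calls kept.

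Adgrl1, a latrophilin that binds teneurins and neurexins, was flatter still outside visceral endoderm. Levels were 148 CPM in the haemato-endothelial-like, 147 in the extraembryonic ectoderm-like, 138 in the primitive streak-like, 133 in the anterior streak-like, 132 in the epiblast-like, 107 in the ectoplacental-like, 105 in the embryonic mesoderm-like and 14.7 in the visceral endoderm-like class. Of the 7 neighbouring pairs in this order, 4 had a ratio whose interval included 1. The visceral endoderm-like level was 7.56-fold below all other nuclei (6.43 to 8.94) and 7.13-fold below the next class (6.02 to 8.49). The extraembryonic ectoderm-like ratio was 1.49 (1.43 to 1.56). In the RNA-drawn haemato-endothelial-like class Adgrl1 stood at 107 CPM (ratio 1.02, 0.904 to 1.16). Its highest RNA-drawn class was the primordial germ cell-like one, at 159 CPM (140 to 179). A gene on the opposite strand, Gm10644, overlaps Adgrl1 and had 452 UMIs against 19235. Strand use in counting was not stated, so reads of the pair cannot be told apart.

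Adgrl3 was distributed like the teneurins and unlike the other latrophilins. It stood at 41.2 CPM in the embryonic mesoderm-like, 40.6 in the anterior streak-like, 33.6 in the primitive streak-like, 33.1 in the epiblast-like, 30.3 in the haemato-endothelial-like, 2.02 in the ectoplacental-like, 1.29 in the extraembryonic ectoderm-like and 0.690 in the visceral endoderm-like class. The first 5 of these classes were close together, with a 15.03-fold step (8.00 to 31.9) down to the last 3. The visceral endoderm-like level rested on 7 UMIs and was 34.2-fold below all other nuclei (16.6 to 85.2). The mesoderm-like level was 2.08-fold above all other nuclei (1.90 to 2.27). A thinned UMI was seen in 15.2% of mesoderm-like and 0.290% of ectoplacental-like nuclei (25.1% and 1.95% unthinned).

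Clusters that no marker list could name gave further levels. A cluster of 926 nuclei led by Sfrp5, with visceral endoderm as its leading list, had 71.4 CPM of Adgrl2, 33.5 of Adgrl1 and 1.45 of Adgrl3. Over the 5 unnamed accessibility clusters Adgrl2 ran from this 71.4 to 465 CPM, with 132 in that of 701 nuclei and 197 in that of 827. A cluster of 377 nuclei with raised primordial germ cell and embryonic mesoderm markers had 666 CPM of Tenm4, 646 of Tenm3 and 86.2 of Tenm2, each second to the mesoderm-like class among the accessibility clusters. The haemato-endothelial-like class shared 34.8% of its nuclei with the RNA-drawn class of that name, and in the latter (231 nuclei) Tenm4 stood at 69.0 CPM, Tenm2 at 2.41 and Tenm3 at 244. These 3 levels were below those of the accessibility-drawn class. In the RNA-drawn parietal endoderm-like class (146 nuclei) Adgrl2 stood at 43.0 CPM (34.1 to 53.4) and Adgrl1 at 9.55 CPM (5.66 to 15.1), both near the visceral endoderm-like levels.

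**Figure D2:**
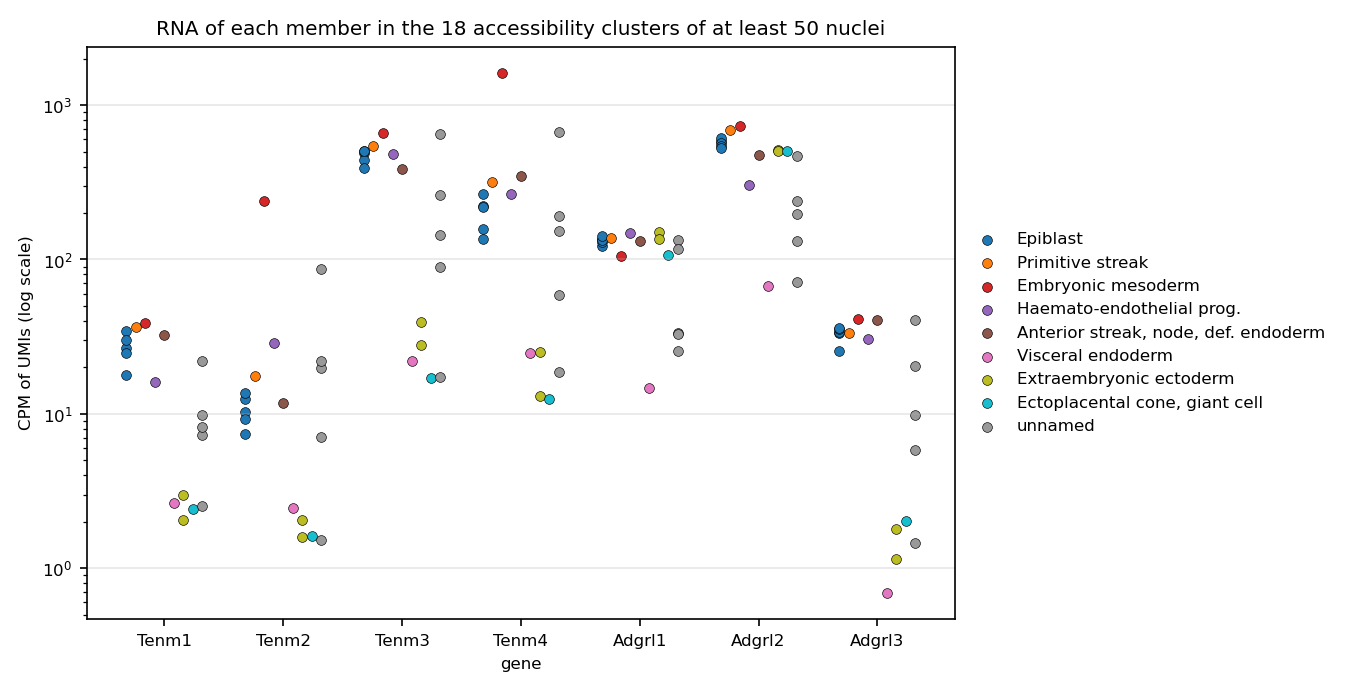
RNA level (vertical axis, CPM of UMIs, log scale) of each of the 7 genes (horizontal axis) in the 18 accessibility clusters of at least 50 nuclei, 1 point per cluster, coloured by class with unnamed clusters in grey. The single embryonic mesoderm-like cluster is highest for Tenm2 and Tenm4, at 240 and 1615 CPM.

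As a description over the 18 accessibility-drawn clusters of at least 50 nuclei, which share both libraries and their depth, log2(CPM + 1) levels of Tenm3 and Adgrl3 had a Pearson coefficient of 0.98, those of Tenm2 and Tenm4 0.93 and those of Adgrl1 and Adgrl2 0.89. The coefficient was 0.27 for Tenm2 with Adgrl1. Among 10680 genes with at least 1000 UMIs, the closest to Tenm2 was Cdh20, a type II cadherin (0.97), followed by Kcnh7 and Pcdh11x. Close to Tenm4 were Zc3h12b (0.98) and Lef1, a Wnt pathway transcription factor (0.96). For Tenm3 they were the potassium channel gene Kcnq3 (0.99), Zdbf2 and Pde3b, and for Tenm1 the glutamate receptor gene Gria3 (0.97), Ric3 and Nbea. For Adgrl3 they were Gucy1a2 (0.99), Zfp521 and Setbp1, for Adgrl1 Msn (0.96), Mfsd10 and Map7d1, and for Adgrl2 Setd7 (0.97), Trak1 and Qtrt2.

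Other known partners were read from a list of 17 genes. Over the 8 classes 114 partner and class pairs had enough counts, of which 21 were over 2-fold higher and 43 lower (5.94% and 16.0% of all gene and class pairs). FLRT proteins bind latrophilins: Flrt2 was highest in the anterior streak-like class (38.9 CPM, 4.17-fold, 3.73 to 4.67) and was 2.10-fold higher in the mesoderm-like class, whereas Flrt1 was 5.4-fold higher in epiblast-like nuclei (4.96 CPM, 4.22 to 6.96). Flrt3 stood at 5.97 CPM in the extraembryonic ectoderm-like class against 50.6 CPM in all other nuclei. Among the UNC5 receptors, which bind FLRTs, Unc5d was 5.45-fold higher in mesoderm-like nuclei (82.1 CPM, 5.07 to 5.85) and Unc5c 31.4-fold higher in haemato-endothelial-like nuclei (1070 CPM, 30.3 to 32.6). Unc5b was broad, from 42.7 CPM in mesoderm-like to 112 CPM in haemato-endothelial-like nuclei, and passed 2-fold in no class. Among neurexins, which bind latrophilins, Nrxn2 was 5.47-fold higher in the epiblast-like class (31.1 CPM, 4.96 to 6.04) and Nrxn3 6.76-fold higher in the haemato-endothelial-like class (81.3 CPM, 6.11 to 7.47). The scaffold gene Shank3 was 25.6-fold higher in the haemato-endothelial-like class (139 CPM, 23.2 to 28.3). Dag1, which encodes dystroglycan, was 3.23-fold higher in ectoplacental-like (257 CPM, 3.04 to 3.42) and 2.44-fold higher in extraembryonic ectoderm-like nuclei (179 CPM, 2.34 to 2.54), where the teneurins were low.

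Smaller partner differences were as follows. In epiblast-like nuclei Shank2 was 3.04-fold, Unc5a 2.57-fold and Shank1 2.40-fold higher. In mesoderm-like nuclei Nrxn3 was 3.03-fold higher. In anterior streak-like nuclei Unc5d was 2.25-fold higher, and in primitive streak-like nuclei Shank1 was 2.16-fold higher. In haemato-endothelial-like nuclei Flrt2 was 2.19-fold higher. The latrophilin relative Adgrl4, an endothelial gene, was too sparse to count, with 7 UMIs there (ratio 5.34, 1.98 to 12.5).

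The partners that were lower lay mostly in the visceral endoderm-like and trophoblast classes. In extraembryonic ectoderm-like nuclei 12 of 15 were lower (23.9% of all genes tested there), among them all 3 FLRT genes, Nrxn2, Nrxn3, all 3 Shank genes, Unc5a, Unc5c and Unc5d. In ectoplacental-like nuclei 11 of 14 were lower (20.9%), among them these genes without Unc5a. In visceral endoderm-like nuclei 8 of 14 were lower (23.7%), among them Flrt1, Flrt2, Unc5d, Nrxn2, Nrxn3, Shank1 and Shank3 but neither Flrt3 nor Unc5c. Unc5c, Flrt3 and Shank3 were lower in epiblast-like and primitive streak-like nuclei, where Flrt2 was also lower in the latter, and Unc5c and Shank3 in anterior streak-like nuclei. Flrt1 and Nrxn2 were lower in mesoderm-like and Flrt1 in haemato-endothelial-like nuclei.

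Chromatin at the promoters of the members varied less than their RNA. Promoters, from 1000 bp before to 100 bp after the first or last start in the files, held peaks for 5 of the 7 genes. Tenm1 and Adgrl2 had none. Where a gene has several starts, the counts of all its promoter peaks were summed. Across 45 gene and class pairs, none was over 2-fold higher (2.79% of all pairs) and 8 were lower (11.2%). The lower ones were Tenm2, Tenm4 and Adgrl3 in the visceral endoderm-like class (3 of 5, against 20.8% of genes), Tenm2 and Adgrl3 in the extraembryonic ectoderm-like class (2 of 5, 19.6%) and Tenm2, Tenm3 and Adgrl3 in the ectoplacental-like class (3 of 5, 19.4%). Adgrl3 had the deepest fall in the extraembryonic ectoderm-like class, 6.75 against 25.9 CPM of peak counts in all other nuclei, 3.83-fold lower (3.09 to 4.82).

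The promoter ratios of Tenm4 and Tenm2 in mesoderm-like nuclei were well below their RNA ratios. Tenm4 promoter accessibility, summed over 2 peaks, was 9.87 CPM in RNA-drawn mesoderm-like nuclei and 12.1 in all other nuclei, a ratio of 0.814 (0.655 to 1.0), and 15.4 against 10.1 in epiblast-like nuclei, a ratio of 1.53 (1.39 to 1.70). Most of these counts (2240) came from the peak near the internal start, where the mesoderm-like ratio was 0.763 (0.597 to 0.962) and the epiblast-like ratio 1.41 (1.26 to 1.58). The peak at the RefSeq 5' end of Tenm4 held 489 counts, with ratios of 1.05 (0.631 to 1.66) and 2.25 (1.75 to 2.89). With windows of 2000 bp to each side the epiblast-like ratio was 2.16 and the mesoderm-like ratio 1.03 (0.930 to 1.14), so the mesoderm-like ratio below 1 was not seen in that window. Tenm2 promoter accessibility in mesoderm-like nuclei was 16.8 against 11.5 CPM (ratio 1.47, 1.24 to 1.74). The windows taken for Tenm3 lie inside the gene, 848 kb or more from its RefSeq 5' end, and stood between 42.8 and 53.3 CPM in the epiblast-like, mesoderm-like, anterior streak-like, haemato-endothelial-like and primordial germ cell-like classes and at 24.3, 23.4 and 14.2 CPM in the visceral endoderm-like, extraembryonic ectoderm-like and ectoplacental-like ones. The Adgrl1 promoter peak, which is wider than the stretch printed above and overlaps it, ran from 26.7 to 63.8 CPM over the 9 classes and was the highest of the 5 in all but the parietal endoderm-like class, where Tenm3 stood at 31.4 CPM. RNA and promoter ratios are from different sets of nuclei. The accessibility-drawn mesoderm-like class shared 54.3% of its nuclei with the RNA-drawn class of the same name. That share was 34.8% for haemato-endothelial-like and 35.5% for anterior streak-like nuclei. Within the RNA-drawn mesoderm-like class the RNA ratio was 9.95 for Tenm4 and 19.4 for Tenm2. In the RNA-drawn haemato-endothelial-like class the log2 RNA ratio was -3.86 for Tenm2 and -2.19 for Tenm4, against -0.28 and -0.24 in the accessibility-drawn class.

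**Figure D3:**
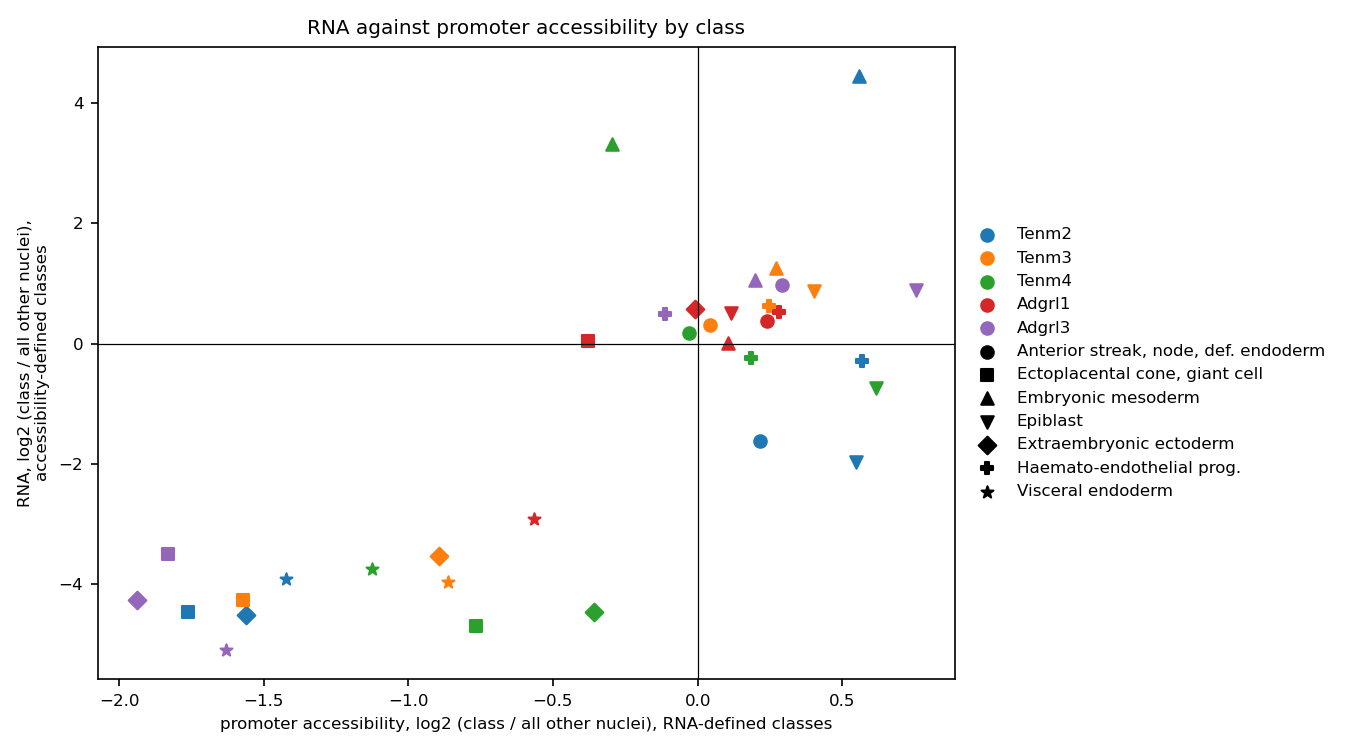
Log2 ratio of a class over all other nuclei for RNA (vertical axis) against that for promoter accessibility (horizontal axis). Colours are the 5 genes with a promoter peak and shapes the 7 classes named in both assays, with RNA from accessibility-drawn and promoters from RNA-drawn classes, so the nuclei of a point differ between the axes. The embryonic mesoderm-like point of Tenm4 lies at 9.92-fold in RNA and 0.814-fold in promoter accessibility.

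Over the 128 peaks and the 9 RNA-drawn classes, 68 of 680 peak and class pairs with enough counts were over 2-fold higher (10.1% of all pairs) and 255 lower (30.2%). Neighbouring peaks share a locus and are not independent. In visceral endoderm-like nuclei 101 of 128 peaks were lower (41.4% of all peaks) and 7 higher (12.6%), with a median log2 ratio of -2.01 against -0.69 over all peaks. In epiblast-like nuclei 29 of 128 were higher (12.3%) and 18 lower (21.1%), and in mesoderm-like nuclei 18 of 112 were higher (9.43%) and 11 lower (20.9%). In extraembryonic ectoderm-like nuclei 62 of 119 were lower (42.5%) and 6 higher (11.5%). Smaller classes had fewer peaks with enough counts. In anterior streak-like nuclei 4 of 54 were higher (8.53%) and 7 lower (18.8%), and in ectoplacental-like nuclei 2 of 42 were higher (7.04%) and 26 lower (42.2%). Haemato-endothelial-like nuclei had 0 of 39 higher (5.21%) and 11 lower (25.3%), parietal endoderm-like nuclei 0 of 29 higher (7.57%) and 17 lower (36.7%), and primordial germ cell-like nuclei 2 of 29 higher (3.29%) and 2 lower (14.5%).

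Just upstream of Tenm4, neighbouring peaks were open in different classes. The peak at chr7:96166786-96167686, 4010 bp before the first start and in no RefSeq gene, held 718 counts in mesoderm-like nuclei. It stood at 42.5 CPM there, 9.22 in haemato-endothelial-like, 4.11 in anterior streak-like, 3.25 in epiblast-like, 2.33 in extraembryonic ectoderm-like and 0.492 in visceral endoderm-like nuclei. The mesoderm-like level was 7.71-fold that of all other nuclei (6.75 to 8.78), and 35.4% of mesoderm-like against 4.39% of other nuclei held a count. The next peak, chr7:96168671-96169556, 2133 bp before the same start, stood at 12.7 CPM in epiblast-like, 6.03 in mesoderm-like, 5.48 in anterior streak-like, 0.361 in visceral endoderm-like and 0.228 in extraembryonic ectoderm-like nuclei. It was thus highest in epiblast-like nuclei, 4.40-fold above the others (3.75 to 5.18), while its mesoderm-like ratio was 0.940 (0.695 to 1.25). In extraembryonic ectoderm-like nuclei it was 30.9-fold lower, on 5 counts (10.5 to 149.96). A further peak at chr7:96143149-96143952, chosen after its values were seen, held 67 mesoderm-like counts and was 8.99-fold higher there (5.71 to 14.0).

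**Figure D4:**
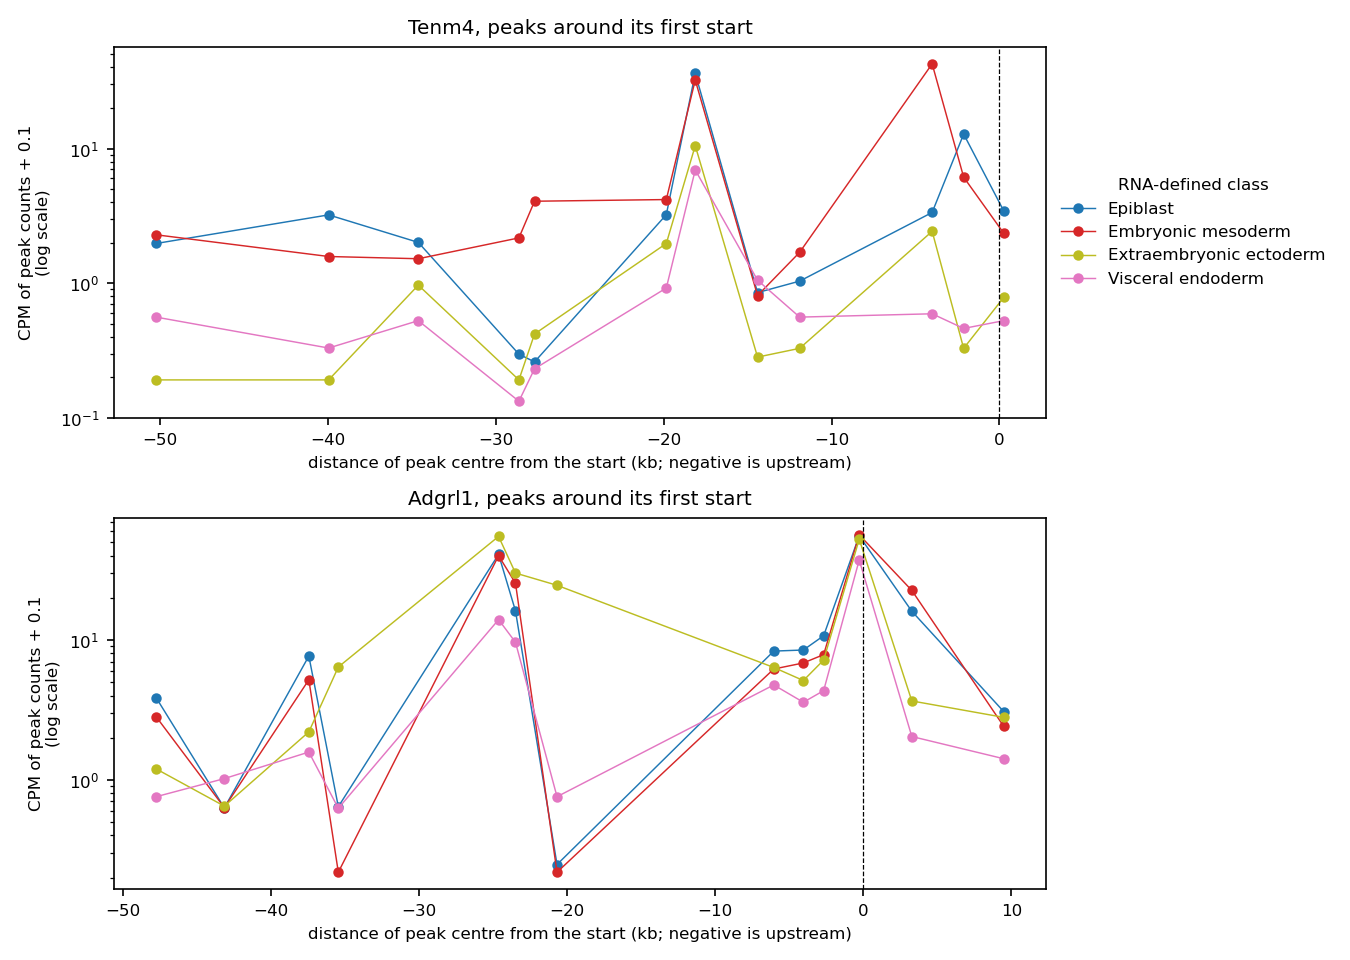
Accessibility (vertical axis, CPM of peak counts plus 0.1, log scale) of the peaks nearest the first start of Tenm4 (upper panel) and Adgrl1 (lower panel), by distance of the peak centre from that start in kb (negative is upstream). Points are pooled levels in 4 RNA-drawn classes, and lines only join the peaks of a class. Near Tenm4 the embryonic mesoderm-like class is highest at the peak 4010 bp upstream and the epiblast-like class at that 2133 bp upstream, and near Adgrl1 the extraembryonic ectoderm-like class stands apart 20678 bp upstream.

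Tenm2 also had a peak that was higher in mesoderm-like nuclei, on fewer counts. The peak at chr11:37224333-37225221, inside Tenm2 and 11105 bp after its most upstream start, held 89 counts in mesoderm-like nuclei (5.26 against 0.587 CPM elsewhere, 8.96-fold, 5.97 to 13.3). It was 11.2-fold lower in extraembryonic ectoderm-like nuclei, on 2 counts (1.97 to 447). The mesoderm value was chosen after it was seen, since fewer than 20 counts were expected there. By the fixed ranking, the Tenm2 peaks with the largest ratios were chr11:36989017-36989939 (3.16-fold higher in epiblast-like nuclei, 2.25 to 4.50) and chr11:36940463-36941387 (2.93-fold, 2.44 to 3.54).

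Near Adgrl1, 2 peaks were higher in extraembryonic ectoderm-like nuclei. The peak at chr8:83879050-83879804, 20678 bp before the first Adgrl1 start and in no RefSeq gene, held 536 of its 615 counts in extraembryonic ectoderm-like nuclei. It stood at 24.5 CPM there, 3.07 in ectoplacental-like, 0.657 in visceral endoderm-like, 0.148 in epiblast-like and 0.118 in mesoderm-like nuclei, with no count in the anterior streak-like, haemato-endothelial-like, parietal endoderm-like and primordial germ cell-like classes. The extraembryonic ectoderm-like level was 63.8-fold that of all other nuclei (46.3 to 89.8), and 18.9% against 0.383% of nuclei held a count. The second peak, chr8:83864240-83865088, was 7.50-fold higher in the same class than in all other nuclei (5.42 to 10.3). Its 6.30 CPM there was below the 9.69 CPM in ectoplacental-like nuclei. Adgrl1 RNA was 1.49-fold higher in the extraembryonic ectoderm-like class and its promoter ratio there was 0.994 (0.914 to 1.08). The window also takes in promoters of Asf1b and Prkaca.

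Among the Adgrl2 peaks with at least 20 counts expected, the largest ratios were in visceral endoderm-like nuclei, where its RNA stood at 51.8 CPM in the RNA-drawn class. The peak at chr3:148786466-148787364, 36064 bp from the nearest start and beyond the 3' end of the gene, held 120 counts in visceral endoderm-like nuclei (3.94 against 0.248 CPM, 15.9-fold, 10.1 to 25.6). The peak at chr3:149008444-149009198, upstream of Adgrl2 and inside Gm30827, was 11.7-fold higher (8.16 to 17.0), with the start of Gm43572 nearer than that of Adgrl2. In contrast, the peak inside Adgrl2 at chr3:148854240-148855096 was 37.0-fold lower in the same class, on 2 counts (10.1 to 307). Of the 37 Adgrl2 peaks, 28 were lower and 4 higher in visceral endoderm-like nuclei. A peak with fewer counts expected, chr3:149022725-149023428, which was picked after its values were seen, held 127 counts in mesoderm-like nuclei and was 17.8-fold higher there (12.3 to 25.9).

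Adgrl3, Tenm3 and Tenm1 also had peaks within these windows. For Adgrl3, the peak chr5:81031363-81032222 was 6.66-fold higher in visceral endoderm-like nuclei (4.19 to 10.6), chr5:81310569-81311469 had an epiblast-like ratio of 3.25 (1.86 to 5.84) and chr5:81344079-81344981 was 23.3-fold lower in extraembryonic ectoderm-like nuclei on 8 counts (9.06 to 85.6), all inside the gene. For Tenm3, chr8:48603000-48604063 was 5.03-fold higher in visceral endoderm-like nuclei (3.49 to 7.22), chr8:48511546-48512478 had an epiblast-like ratio of 3.03 (2.05 to 4.51) and chr8:48669639-48670498 was 14.0-fold lower in visceral endoderm-like nuclei on 4 counts (3.81 to 116), all inside Tenm3. Tenm1 had 2 peaks in its window: chrX:43246145-43247042 had an epiblast-like ratio of 2.18 (1.42 to 3.37) and was 6.82-fold lower in visceral endoderm-like nuclei on 4 counts (1.83 to 57.2), and chrX:43184886-43185781 had an epiblast-like ratio of 1.02 (0.646 to 1.58).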

How the data were processed

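Nuclear RNA and chromatin accessibility of pooled E7.0 mouse embryos were measured in the same nuclei, with 1 library per assay. The authors deposited whole-number counts, UMI counts per gene and counts per peak, not normalized. Per the submitters' processing notes they used Cell Ranger ARC 2.0.0 and build mm10. For the aligner, the peak caller and strand use: not given in the sources used here. Members, marker lists and partner lists were chosen with earlier results of these data known.

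Kept nuclei had 1000 or more UMIs, 500 or more genes, 1000 or more peak counts and mitochondrial UMIs of no more than 20%. Scrublet in scanpy 1.11.5 (expected rate 0.1) called 1154 of 15341 barcodes (7.52%) doublets, and these were left out. RNA (2000 variable genes, 30 components) and peaks (TF-IDF, 30 components) were clustered apart with 15 neighbours and leidenalg 0.10.2 at resolution 1. A cluster took the name of the marker list with the highest mean log2 ratio, of at least 0.5, with 3 or more markers raised 1.5-fold. It stayed unnamed where another list with 3 or more raised markers had over 0.5 of that mean, unless the leading list held at least 2 more of the cluster's 10 leading genes. It also stayed unnamed where another list held more of those 10. This naming rule was written with the data in view, so a class can differ from the study's own.

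Levels are counts summed over a class per 1000000 UMIs or peak counts (CPM). A ratio sets a class of at least 100 nuclei against all other kept nuclei, with an exact 95% conditional interval. For peaks, counts were taken as fragments (the count divided by 2, rounded up), since 86.4% of nonzero values were even. A pair was counted past 2-fold where at least 10 counts were expected in the class. The calculation was tested on simulated data. The files give a range of starts for each gene, and only its first and last positions were used, so starts between them had no window. A promoter ran from 1000 bp before to 100 bp after these positions. The text names all members, partners past 2-fold, the 3 genes most alike to each member (a few named by these rules are not reported here), and for each member the 2 peaks with the largest and the 1 with the smallest ratio among peaks with at least 20 counts expected, leaving out the 4 pairs with 0 counts, whose ratio has no logarithm. Sequences and gene spans are RefSeq's (GRCm38.p6). Alternatives varied resolution, doublets, depth, clustering without the members, the assay that draws the classes, the fold limit, the count filter, the promoter window and thinning.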

Additional observations from a re-analysis of the deposited data

How the results depend on the processing

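The 12 single ratios recomputed, 1 class for each member and assay and each above 1, stayed above 1 under each alternative run, and the other ratios were not recomputed one by one. With a limit of 1.5-fold in place of 2-fold, 16 member and class pairs were higher in RNA (6 at 2-fold), 2 were higher and 15 lower in promoter accessibility (0 and 8), and 112 peak and class pairs were higher (68). Without the filter on low counts, 130 peak and class pairs were higher and 455 lower (255 with it). Setting peaks to 0 or 1 in each nucleus left 44 higher. Windows of 2000 bp to each side of the starts gave 1 higher promoter, Tenm4 in epiblast-like nuclei, at 2.16-fold. The cause of these moves was not tested, apart from the limits and filters that set them by construction. The other 50 recomputed counts lay within 1.5 times of those reported. Of 89 recomputed single ratios, 59 stayed within the counting interval and 30 moved. Tenm2 RNA in embryonic mesoderm-like nuclei was 8.44-fold with doublet calls kept, the lowest of its 7 alternatives, against a highest of 21.5. Thinning to 5000 UMIs left out 1609 shallower nuclei. Levels under about 3 CPM rest on few UMIs, as for Adgrl3 in visceral endoderm-like nuclei. Each assay had 1 library, so there were no replicates to pair. The assays share their nuclei, which let classes drawn from either assay be read in the other, but RNA and accessibility were not compared nucleus by nucleus.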

Other observations

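RefSeq places the 5' end of some members far from every start in the files, and these ends were looked at after the values above had been seen. For Tenm1 the RefSeq 5' end (GRCm38.p6, chromosome X, position 43429168, minus strand) lies 154 kb from the nearest start in the files, and 2 peaks with 1643 counts in all lay at it, outside the windows used above. Their accessibility was 10.5 CPM in epiblast-like, 8.19 in haemato-endothelial-like, 7.63 in embryonic mesoderm-like, 6.85 in anterior streak-like, 2.84 in ectoplacental-like, 2.43 in visceral endoderm-like and 1.73 in extraembryonic ectoderm-like nuclei. The epiblast-like level was 1.94-fold that of all other nuclei (1.70 to 2.22), and the extraembryonic ectoderm-like level 4.49-fold lower (2.95 to 7.20). Of these classes, the extraembryonic ectoderm-like, visceral endoderm-like and ectoplacental-like ones were low both here and in Tenm1 RNA. The parietal endoderm-like class was low in Tenm1 RNA (2.65 CPM) but stood at 5.81 CPM here (ratio 0.805, 0.346 to 1.59). The primordial germ cell-like class, with Tenm1 RNA at 21.0 CPM, stood at 5.01 CPM here (ratio 0.692, 0.316 to 1.32).

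For Adgrl2 no peak overlapped the RefSeq 5' end (chromosome 3, position 148989096) itself. The peak taken for it, chr3:148987481-148988313 with 3481 counts, lies just inside the gene. Its ratios ran from 0.836 in the parietal endoderm-like to 1.22 in the anterior streak-like class. In the RNA-drawn visceral endoderm-like nuclei, where Adgrl2 RNA was 10.0-fold lower (9.47 to 10.6), the ratio was 0.970 (0.845 to 1.11). The same peak also lies at the promoter of Gm43573. The next peak into Adgrl2, chr3:148986397-148987156 with 3048 counts, differed between classes. Its log2 ratio was -3.18 in visceral endoderm-like and 1.47 in embryonic mesoderm-like nuclei. For Tenm3 the RefSeq 5' end lies 848 kb from the nearest start in the files, and no peak overlapped it.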
